A study of Mus musculus with 4 samples.

Results

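Apolipoprotein E (Apoe) and 4 genes beside it on mouse chromosome 7, Apoc1, Apoc4, Apoc2 and Tomm40, were followed across cell classes and libraries of mouse aorta. They were taken by symbol and make up 5 of the 32285 features in the count tables. Apoe encodes the apolipoprotein that lets remnant lipoproteins bind their receptors on cells, and it also accepts cholesterol that cells export. Macrophages are a well known source of it outside the liver, and mice without it accumulate remnant lipoproteins and develop atherosclerosis. Apoc1, Apoc2 and Apoc4 encode small exchangeable apolipoproteins. Of these, apolipoprotein C-II is the cofactor of lipoprotein lipase, and apolipoprotein C-I slows lipoprotein clearance. Tomm40 encodes the pore of the translocase of the outer mitochondrial membrane and is the single gene of the 5 that does not encode a lipid carrier.

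Single cells from digested aorta were measured with the 10x Genomics 3' droplet chemistry, and each of the 4 groups is a single library. Normal diet was given to WT and to LysM-DKO mice, and western diet to WT/ApoE-/- and to LysM-DKO/ApoE-/- mice; values follow that order throughout. The labels name no strain, age, sex or number of animals, and the DKO abbreviation is not spelled out there. The series title concerns epsins, endocytic adaptor proteins, and LysM is the myeloid lysozyme gene whose promoter is commonly used to drive Cre in macrophages and neutrophils. Both western diet groups lack ApoE and both normal diet groups carry it, so no library shows western diet with an intact Apoe gene. Diet, ApoE genotype and sex as read from the counts (Xist at 950, 950, 0.636 and 0.563 CPM) differed together and cannot be told apart.

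Barcodes with at least 1000 unique molecular identifiers (UMIs, 1 per captured transcript) and at most 10% mitochondrial UMIs were kept, which left 7758, 8230, 13744 and 8133 barcodes with medians of 4167, 3404, 2103 and 6761 UMIs. Each barcode took the first of 6 class rules it met, based on at least 5 summed UMIs of C1qa, C1qb and C1qc (macrophage), 2 of Cd79a and Ms4a1 (B), 2 of Cd3d, Cd3e and Trac (T), 2 of Pecam1 and Cdh5 (endothelial), 3 of Pdgfra and Serpinf1 (fibroblast), or 3 of Myh11 and Cnn1 (smooth muscle). The macrophage class held 92, 208, 939 and 135 barcodes, and in the WT/ApoE-/- library 205 of its 939 barcodes were at the threshold of 5 UMIs or 1 above it. Among the 6 classes, markers outside the rules were highest in their own class in every library, with 1 exception. In the LysM-DKO/ApoE-/- library, which had 33 T barcodes, 3 of the 4 T markers were so. Unclassified barcodes were outside this ranking. In LysM-DKO/ApoE-/- their 5 fibroblast markers summed to 22031 CPM, against 18370 CPM in fibroblasts, while in the other libraries fibroblasts had the higher sum. Barcodes that met several rules were 23.8, 28.4, 8.32 and 7.59% of those kept, and 4 smooth muscle markers outside the rules summed to 4182 to 23637 CPM in the other 5 classes. Any pair of libraries shared 38 to 129 barcode sequences. Levels are given as CPM, the UMIs of a gene per 1000000 UMIs of its class, with exact Poisson 95% intervals, which cover counting error only. With 1 library per group there is no replicate error, and no test between groups was made.

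On GRCm38 the 5 genes lie on the minus strand within 43.9 kb, from 19671579 to 19715438, in the order Apoc2 (19671579 to 19677941), Apoc4 (19678083 to 19681479), Apoc1 (19689481 to 19692660), Apoe (19696109 to 19699188) and Tomm40 (19701313 to 19715438). The annotation holds a readthrough transcript, Gm44805, over Apoc2 and Apoc4, and an antisense gene, Gm20512, over the start of Tomm40. The 250 bases before the annotated start are shown for 3 of them with unlike expression. On normal diet Apoe was seen in every class but ran from 88.5 to 7012 CPM, and Tomm40 ran from 12.6 to 52.4 CPM. Apoc4 was seen in few barcodes. The sequences are from RefSeq (GRCm38.p6), written 5' to 3' on the strand of the gene. Capitals mark matches on either strand to the GC box with letters GGGCGG, to the CCAAT box spelled CCAAT, to the TATA box searched as TATAAA, to the hexamer of nuclear receptors with letters AGGTCA, and to paired hexamers, which repeat it after 4 bases of any kind as liver X receptors bind it. Apoe lies at chr7:19699189-19699438, Apoc4 at chr7:19681461-19681710 and Tomm40 at chr7:19715430-19715679.
Apoe: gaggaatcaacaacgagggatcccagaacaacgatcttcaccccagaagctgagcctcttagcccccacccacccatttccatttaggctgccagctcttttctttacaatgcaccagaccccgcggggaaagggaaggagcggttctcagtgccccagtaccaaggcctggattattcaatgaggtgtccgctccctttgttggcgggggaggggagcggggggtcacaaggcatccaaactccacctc
Apoc4: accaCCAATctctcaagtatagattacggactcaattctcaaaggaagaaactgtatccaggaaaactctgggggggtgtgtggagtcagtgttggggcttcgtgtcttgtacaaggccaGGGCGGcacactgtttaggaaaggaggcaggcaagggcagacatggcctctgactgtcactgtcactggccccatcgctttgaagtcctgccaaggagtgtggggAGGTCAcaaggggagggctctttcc
Tomm40: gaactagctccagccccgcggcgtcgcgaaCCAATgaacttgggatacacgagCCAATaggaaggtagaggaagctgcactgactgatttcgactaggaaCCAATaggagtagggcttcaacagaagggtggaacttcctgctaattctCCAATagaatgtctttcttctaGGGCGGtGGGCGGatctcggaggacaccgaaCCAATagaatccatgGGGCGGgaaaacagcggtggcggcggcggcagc
Tomm40 held 3 GC boxes and 5 CCAAT matches, and 16 CpG dinucleotides against a median of 6 over 32851 such windows. Apoc4 held 1 GC box, 1 CCAAT box and 1 hexamer, with 4 CpG dinucleotides. None of the 5 motifs matched in the Apoe window shown, which is the most upstream of 3 annotated starts and has 8 CpG dinucleotides. Of all windows, 32.7% held a GC box, 33.8% a CCAAT box, 12.4% a TATA box, 14.0% a hexamer and 0.0152% held the paired hexamers. The matches are letters only and were not compared with binding data.

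Apoe was among the most abundant transcripts of macrophages and fibroblasts on normal diet. In macrophages it stood at 7012 CPM in WT (6776 to 7253) and 5435 CPM in LysM-DKO (5298 to 5575), which placed it at rank 11 and 15 of all features. In fibroblasts it stood at 3256 CPM (3190 to 3323) and 4337 CPM (4269 to 4405), at rank 18 and 15. Endothelial barcodes followed with 635 and 815 CPM, B barcodes with 326 and 300 CPM, smooth muscle with 138 and 284 CPM, and T barcodes with 88.5 and 204 CPM. The order of the 6 classes was the same in both libraries, and the only neighbours in it with overlapping intervals were B and smooth muscle in LysM-DKO. Fibroblasts, with 628 and 751 barcodes against 92 and 208 macrophages, held 41.4 and 44.4% of the Apoe UMIs of the library, against 15.0 and 16.7% for macrophages.

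**Figure D1:**
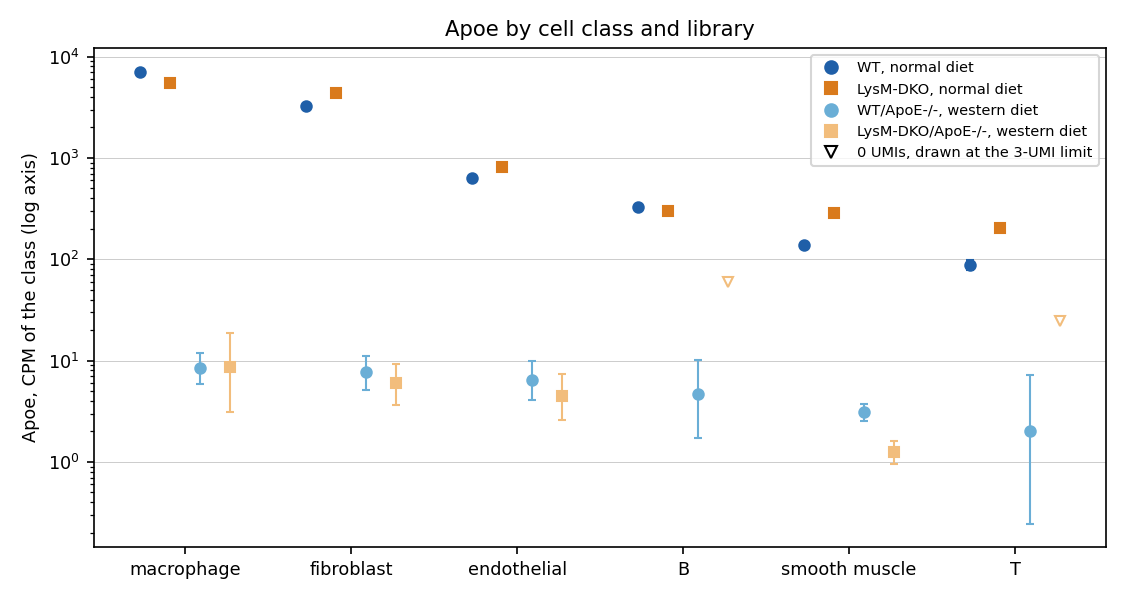
Apoe level (CPM of the class, log axis) in 6 cell classes and 4 libraries, with exact Poisson 95% intervals where they exceed the symbol, and open triangles at the limit of 3 UMIs where no UMI was counted. Macrophages (7012 and 5435 CPM) and fibroblasts (3256 and 4337 CPM) are highest on normal diet, and every ApoE-/- value lies at 8.55 CPM or below except the limits at 0 UMIs.

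The level within a class was uneven. Single WT macrophages had a median of 6414 CPM with 1069 and 15522 CPM at the 10th and 90th percentiles, and 83 of 92 (90.2%) reached 1000 CPM. LysM-DKO macrophages had a median of 4664 CPM with 0 and 17415 CPM at the same percentiles, and 153 of 208 (73.6%) reached 1000 CPM. The share below 1000 CPM was thus larger in LysM-DKO, in a class that includes barcodes meeting several rules. Fibroblasts had medians of 2512 and 2720 CPM. B, T and smooth muscle barcodes had a median of 0, and the 10% of barcodes with most Apoe held 70.2 to 79.7% of the Apoe UMIs of these classes. Endothelial barcodes were as uneven, with medians of 0 and 69.4 CPM and 78.2 and 82.2% of the Apoe UMIs in such barcodes.

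**Figure D2:**
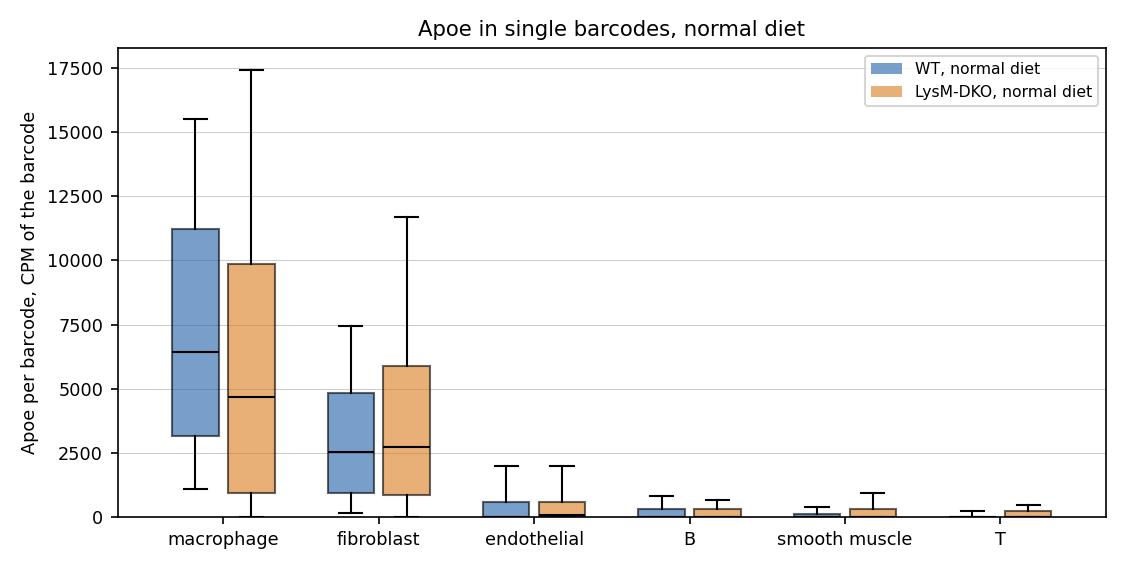
Apoe per barcode (CPM of the barcode) in the normal diet libraries, where boxes span the 25th to 75th percentiles, lines mark medians and whiskers reach the 10th and 90th percentiles. Macrophage medians are 6414 (WT) and 4664 CPM (LysM-DKO), fibroblast medians are 2512 and 2720 CPM, endothelial medians are 0 and 69.4 CPM, and B, T and smooth muscle medians are 0.

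After each barcode was thinned to 1000 UMIs, an Apoe UMI was seen in 88.0 and 78.4% of macrophages and in 78.3 and 76.3% of fibroblasts (95.7, 88.0, 91.1 and 89.9% before thinning). T barcodes, which should lack Apoe, gave 4.74 and 13.0% (18.8 and 35.7% before thinning), and B barcodes gave 15.0 and 15.3% (35.3 and 41.9%). Smooth muscle gave 10.1% in WT and 699 of 3487 barcodes in LysM-DKO (95% interval 18.7 to 21.4%), against 27.9 and 40.1% before thinning. Its WT share lay between those of T and B barcodes. Its LysM-DKO share lay above both after thinning to 1000 UMIs, but thinning to 2000 UMIs gave 22.5%, between T (21.9%) and B barcodes (26.2%). Median depths before thinning were 2952 and 3518 UMIs for B, 4299 and 3721 for T, and 6228.5 and 3667 for smooth muscle. Endothelial barcodes, at 25.4 and 27.7%, were above B and T barcodes in both libraries. They also held more fibroblast transcripts, with 5 markers summing to 2255 and 2668 CPM against 515 to 872 CPM in B and T barcodes. The part of such transcripts in the Apoe share was not tested.

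Within the macrophage class, the level followed the complement C1q signal that defines it. WT barcodes with 5 to 6 C1q UMIs had 2344 CPM of Apoe, those with 10 to 19 had 5554 CPM, and those with 20 or more had 8366 CPM. In LysM-DKO the same steps gave 733, 5433 and 6017 CPM. Depth went with it, with medians of 3243 and 5058 UMIs in the first and last step in WT and 2892 and 5342 UMIs in LysM-DKO, and its part was not tested. Barcodes without a C1q UMI had 473 and 813 CPM. Macrophages with at least 2 UMIs of Lyve1 and Folr2, markers of resident vascular macrophages, held the most Apoe, with 8423 CPM in WT (8031 to 8829, 38 barcodes) and 8924 CPM in LysM-DKO (8614 to 9241, 74 barcodes). Those with at least 2 UMIs of Trem2 and Gpnmb, markers of lipid-laden macrophages, had 3542 CPM (3123 to 4000, 9 barcodes) and 4427 CPM (4067 to 4810, 16 barcodes). Macrophages in neither group had 6826 CPM (6467 to 7199, 45 barcodes) in WT and 3664 CPM (3515 to 3817, 118 barcodes) in LysM-DKO. The WT and LysM-DKO intervals overlapped in the Lyve1 and Folr2 group and did not in the other groups, where LysM-DKO was higher with Trem2 and Gpnmb and lower in the rest. In the Trem2 and Gpnmb group 1 barcode held 75 of 259 Apoe UMIs in WT and 104 of 557 in LysM-DKO. The intervals do not cover such clumping, so that direction rests on few barcodes. Where a barcode met both thresholds it went to the pair with more UMIs. With a threshold of 4 UMIs the Trem2 and Gpnmb group had 1493 CPM (2 barcodes) and 3116 CPM (6 barcodes). All 32 of these UMIs in WT lay in 1 barcode, as did 104 of 187 in LysM-DKO. At that threshold the Lyve1 and Folr2 group (7347 CPM, 6888 to 7827) and the macrophages in neither group (7241 CPM, 6951 to 7539) overlapped in WT, while in LysM-DKO they had 9447 and 4388 CPM.

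Between the normal diet libraries, Apoe in macrophages was 1.29-fold lower in LysM-DKO (log2 ratio -0.37, exact binomial 95% interval -0.43 to -0.31). This direction depended on barcodes that met several class rules: without them the level was 5991 CPM in WT and 7739 CPM in LysM-DKO, a log2 ratio of 0.37. For the other classes, the same log2 ratio was 0.41 (0.38 to 0.45) in fibroblasts, 0.36 (0.29 to 0.43) in endothelial barcodes, 1.04 (0.98 to 1.11) in smooth muscle, 1.21 (1.01 to 1.41) in T barcodes and -0.12 (-0.24 to 0.00) in B barcodes. Of the 2 members with at least 20 UMIs over both libraries in macrophages, Apoe and Tomm40, 0 were past 2-fold, where 6.55% of 7068 features were higher and 2.39% lower. In smooth muscle 2 of 3 members were past 2-fold higher (Apoe and Apoc1), where 6.48% of features were. With barcodes of 2000 UMIs or more the smooth muscle Apoe log2 ratio was 0.96, short of 2-fold. In T barcodes 1 of 2 was, Apoe, where 5.15% of features were.

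Transcripts of other classes also differed in the smooth muscle class. The fibroblast transcript Dcn stood at 175 CPM in WT and 420 CPM in LysM-DKO (log2 ratio 1.27) and C1qa at 1.60 and 6.81 CPM. Not all fibroblast transcripts had this direction, as Col1a1 stood at 625 and 619 CPM and Col3a1 at 712 and 610 CPM, and the sum of 5 fibroblast markers was 1571 and 1753 CPM. The part of these transcripts in the Apoe difference was not tested.

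Barcodes outside the 6 classes held 2051 and 2636 Apoe UMIs on normal diet. Those with at least 3 UMIs of Lum and Vcam1 had 3948 CPM (100 barcodes) and 2954 CPM (129 barcodes). Barcodes rich in haemoglobin transcripts had 72.6 and 166 CPM, near the T level.

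In both ApoE-/- libraries Apoe was close to 0 in every class. Of 13744 WT/ApoE-/- barcodes 217 (1.58%) held an Apoe UMI, 239 UMIs in all, and of 8133 LysM-DKO/ApoE-/- barcodes 105 (1.29%) did, 109 UMIs in all. No barcode held more than 3. In macrophages the level was 8.44 CPM (5.81 to 11.8) and 8.55 CPM (3.14 to 18.6), which was 831- and 636-fold below WT and LysM-DKO on normal diet, which carry an intact Apoe gene. Fibroblasts, at 7.67 and 6.02 CPM, were 424- and 721-fold lower. The order of classes seen on normal diet, with macrophages, fibroblasts and endothelial barcodes first, was found again in these few UMIs, but the intervals of neighbours overlapped except between endothelial (4.50 CPM) and smooth muscle (1.24 CPM) in LysM-DKO/ApoE-/-. Barcodes with an Apoe UMI were deeper (medians of 6542 against 2075 UMIs, and 7451 against 6750), and 1 UMI in each library lay in a barcode sequence shared with a normal diet library. A 3' count sees the end of a transcript and does not show whether a remaining transcript is intact. T barcodes of LysM-DKO/ApoE-/- held 0 Apoe UMIs, which allows up to 24.8 CPM, and its 14 B barcodes held 0, which allows up to 59.8 CPM.

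Smooth muscle was the only one of the 6 classes in which the interval of the residual Apoe ratio between the ApoE-/- libraries excluded 0, with 107 UMIs (3.11 CPM, 2.55 to 3.76) in WT/ApoE-/- and 60 UMIs (1.24 CPM, 0.949 to 1.60) in LysM-DKO/ApoE-/-. The log2 ratio was -1.32 (-1.80 to -0.85), opposite to that on normal diet, and 1 of 2 members with enough UMIs, Apoe, was past 2-fold lower, where 9.52% of features were. With barcodes of at most 5% mitochondrial UMIs the log2 ratio was -0.65. In the same class Dcn stood at 1507 and 136 CPM and C1qa at 21.5 and 0.726 CPM. Their part in the difference was not tested.

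Apoc1 was sparse, with 13, 150, 31 and 58 UMIs in the 4 libraries. Its highest class differed between LysM-DKO on normal diet and LysM-DKO/ApoE-/- on western diet. In WT and WT/ApoE-/- macrophages were highest, at 4.19 and 7.41 CPM. The WT macrophages held 2 UMIs, and the intervals of neighbouring classes in WT overlapped. On normal diet its highest class level was in LysM-DKO fibroblasts, which held 49.3% of the Apoc1 UMIs of that library, where 74 UMIs in 42 of 751 barcodes gave 20.2 CPM (15.9 to 25.4), against 4 UMIs in 4 of 628 WT barcodes, 1.41 CPM (0.383 to 3.60). The ratio was 14.4-fold (log2 3.68, 2.43 to 5.76). Without the barcode with most UMIs in each library, which held 8 of the 74, the log2 ratio was 3.88. Apoc1 was 1 of 3 members past 2-fold higher in this comparison, where 2.71% of 11521 features were. Endothelial barcodes held 1 and 29 UMIs (log2 4.29, 2.26 to 10.21) and smooth muscle 1 and 23 (log2 4.40, 2.33 to 10.32), each with the interval above 0. In endothelial barcodes Apoc1 was 1 of 3 members past 2-fold higher, where 3.51% of features were. The ApoE-/- libraries held 0 and 1 Apoc1 UMI in fibroblasts, 0 and 1 in endothelial barcodes and 1 and 4 in smooth muscle.

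Summed over 42 barcodes, LysM-DKO fibroblasts with an Apoc1 UMI differed from the other fibroblasts of the same library in further transcripts. They were also deeper, with medians of 5565 against 4070 UMIs. Car3, a carbonic anhydrase abundant in fat, stood at 853 CPM in them and 4.47 CPM in the rest. The fatty acid binding protein gene Fabp4 stood at 2685 and 204 CPM. Saa3, an acute phase apolipoprotein, stood at 1486 and 90.6 CPM, and Apoe itself at 7205 and 4072 CPM. The adipocyte markers Adipoq, Plin1 and Cidec summed to 16.4 CPM in the LysM-DKO fibroblast class and 1.05 CPM in WT, and 51 of their UMIs lay in 1 barcode with Apoc1. Without all barcodes holding a UMI of these 3 genes, an alternative chosen after seeing the data, Apoc1 had 69 UMIs in 41 LysM-DKO barcodes and 4 in WT (log2 3.60, 2.34 to 5.67), and the log2 ratio was 4.17 in endothelial barcodes and 4.07 in smooth muscle. The Car3, Fabp4, Saa3 and Apoe levels were not recomputed without these barcodes, so 1 barcode may weigh on them.

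Over the whole fibroblast class 2 of 7 apolipoprotein genes from other loci with enough UMIs were past 2-fold higher in LysM-DKO on normal diet, where 2.71% of all features were, and 0 were lower. Saa3 stood at 1.05 and 208 CPM (log2 7.41, 6.07 to 9.91), and Apod, a lipocalin that carries small lipids, at 207 and 938 CPM (log2 2.18, 2.05 to 2.31). In the ApoE-/- libraries fibroblast Saa3 stood at 177 and 26.8 CPM. Both genes were chosen after their values were seen.

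In the ApoE-/- libraries Apoc1 was found in macrophages, with 29 UMIs in 17 of 939 barcodes (7.41 CPM, 4.97 to 10.6) in WT/ApoE-/- and 52 UMIs in 2 of 135 barcodes (74.1 CPM, 55.3 to 97.2) in LysM-DKO/ApoE-/-. The second value rests on 1 barcode that held 51 of the 52 UMIs. With it, LysM-DKO over WT had a log2 ratio of 3.31 (2.64 to 4.03); without the barcode with most UMIs in each library it was -1.60 (-7.51 to 0.46), from 1 and 25 UMIs. Against LysM-DKO on normal diet, LysM-DKO/ApoE-/- macrophages had a log2 ratio of 4.56 with that barcode and 0.65 without it. WT/ApoE-/- macrophages had 29 UMIs against 2 in WT, a log2 ratio of 0.53 (-1.16 to 3.94), which spans 0. No direction between genotypes can be read for Apoc1 in macrophages.

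In the ApoE-/- libraries all macrophage Apoc1 UMIs lay in the Trem2 and Gpnmb group. That group held 29 of 29 UMIs in WT/ApoE-/- (12.4 CPM, 8.28 to 17.8) and 52 of 52 in LysM-DKO/ApoE-/-, while it held 59.9 and 53.0% of all macrophage UMIs. The WT/ApoE-/- macrophages in neither group held 0, which allows up to 2.08 CPM. The Lyve1 and Folr2 groups also held 0, but their depth allows up to 24.1 CPM (36 barcodes) and 21.8 CPM (44 barcodes), so in WT/ApoE-/- a level as high as that with Trem2 and Gpnmb was not detectable there. WT/ApoE-/- macrophages with an Apoc1 UMI had 1187 CPM of Cd5l, a secreted macrophage protein, against 15.8 CPM in those without. Their Gpnmb level was 5239 against 761 CPM, but Gpnmb also served to form the group that held these UMIs. Its difference is therefore not separate from that grouping. The 2 LysM-DKO/ApoE-/- barcodes had 1327 CPM of Cd5l against 32.1 CPM. Barcodes with Apoc1 were deeper in the WT/ApoE-/- library (median 10451 against 2682.5 UMIs).

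**Figure D3:**
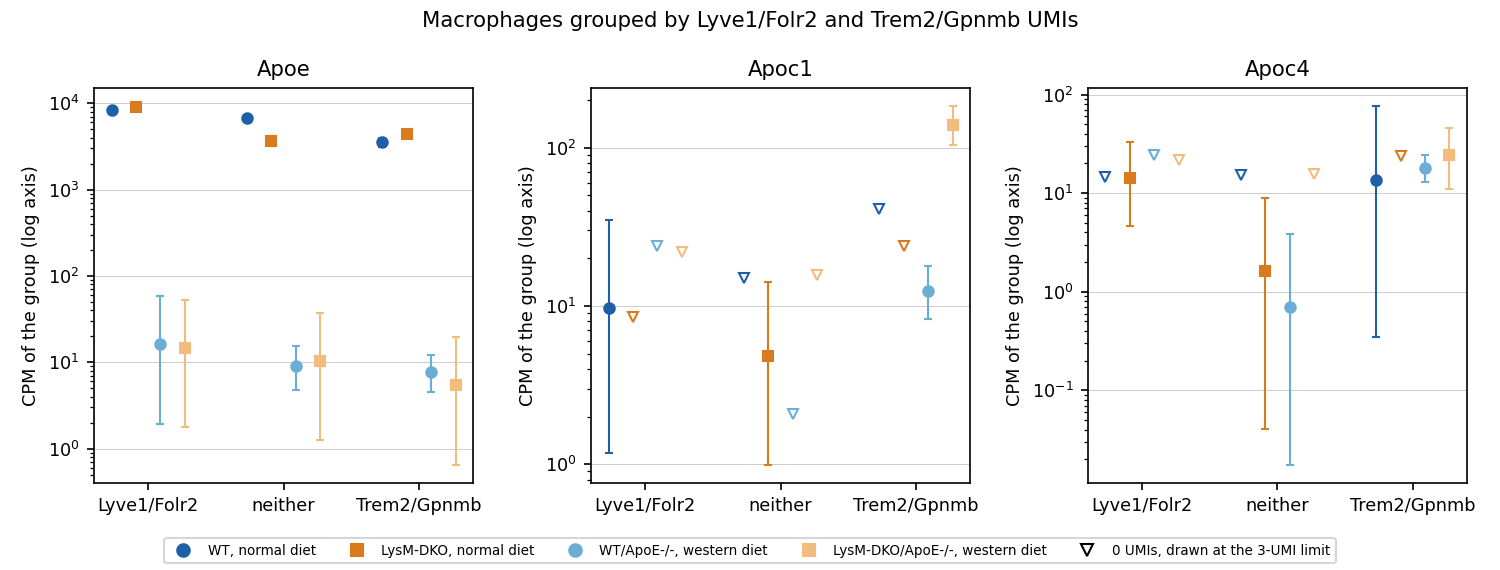
Apoe, Apoc1 and Apoc4 (CPM of the group, log axes) in macrophages grouped by Lyve1 and Folr2 or by Trem2 and Gpnmb UMIs, in 4 libraries, with exact Poisson 95% intervals and open triangles at the limit of 3 UMIs where none was counted. Apoe on normal diet is highest in the Lyve1 and Folr2 group (8423 and 8924 CPM), and the Apoc1 UMIs counted on western diet lie in the Trem2 and Gpnmb group (12.4 and 140 CPM, the latter with 51 of 52 UMIs in 1 barcode), where the limit at 0 UMIs in the Lyve1 and Folr2 groups is 24.1 and 21.8 CPM.

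Apoc4, known mainly from liver, gave 17, 21, 47 and 10 UMIs. Macrophages held 1, 6, 43 and 9 of them, at 2.09, 5.45, 11.0 and 12.8 CPM, and no other class held more than 7 in a library. On western diet 91.5 and 90.0% of all Apoc4 UMIs were in macrophages, against 1 of 17 and 6 of 21 on normal diet. Macrophages were 1.19, 2.53, 6.83 and 1.66% of the barcodes kept. Their Trem2 and Gpnmb group held 15.3, 11.4, 59.9 and 53.0% of the macrophage UMIs. The part of these sizes in the Apoc4 shares was not tested. The intervals of the WT/ApoE-/- macrophage level (7.96 to 14.8 CPM) and of each other WT/ApoE-/- class did not overlap. The log2 ratio to normal diet was 1.82 for WT (-0.16 to 7.73) and 1.20 for LysM-DKO (-0.42 to 3.01), both intervals spanning 0. Single barcodes weighed on these counts: 13 of the 43 UMIs were in 1 barcode, without which the WT/ApoE-/- level was 7.69 CPM, and 5 of the 6 LysM-DKO UMIs were in 1 barcode. Without the barcode with most UMIs in each library, the LysM-DKO ratio was 2.77 (0.20 to 8.76), from 6 and 1 UMIs, and WT had 30 against 0 UMIs.

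Like Apoc1, Apoc4 lay in the Trem2 and Gpnmb group on western diet, with 42 of 43 UMIs in 12 barcodes (17.9 CPM, 12.9 to 24.2) and 9 of 9 UMIs in 4 barcodes (24.2 CPM, 11.1 to 46.0). Macrophages with an Apoc4 UMI had 1514 CPM of Cd5l against 28.3 CPM in WT/ApoE-/-, and 1332 against 2.98 CPM in LysM-DKO/ApoE-/-. Gpnmb, which also served to form that group, stood at 3917 against 875 CPM and at 4517 against 700 CPM. These Gpnmb values are not separate from the grouping. The depth of the barcodes also differed (medians of 7396 against 2682.5 and 7808.5 against 3992 UMIs), and its part was not tested.

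Apoc2 had 0, 7, 4 and 2 UMIs in macrophages, of which 5 of the 7 in LysM-DKO came from 1 barcode. B barcodes held 4, 9, 6 and 0 UMIs and smooth muscle 8, 2, 2 and 0. Of 17 UMIs in unclassified LysM-DKO barcodes, 16 lay in 1. Fibroblasts and T barcodes held 0 in all 4 libraries, which allows up to 1.05, 0.819, 0.767 and 0.903 CPM in fibroblasts. No difference between libraries was detectable for Apoc2 at this depth in macrophages, where it had under 20 UMIs over each pair of libraries compared.

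Tomm40 was found in every class, with class levels from 12.6 to 52.4 CPM and 0 UMIs only in the 33 T barcodes of LysM-DKO/ApoE-/- (up to 24.8 CPM). It had 1098, 865, 1175 and 1348 UMIs, which is 26.9, 22.9, 22.0 and 23.7 CPM of the libraries. Smooth muscle had 25.9, 20.6, 22.0 and 23.4 CPM, fibroblasts 23.2, 21.3, 23.8 and 26.8 CPM, and endothelial barcodes 24.8, 22.2, 27.2 and 23.6 CPM. Macrophages had the lowest values on normal diet, with 12.6 CPM (4.61 to 27.3, 6 UMIs) and 12.7 CPM (6.95 to 21.3, 14 UMIs). These intervals overlapped those of T barcodes, so the rank is not settled. On western diet macrophages had 20.5 and 24.2 CPM, but the log2 ratios of 0.60 (-0.48 to 2.19) and 0.92 (-0.18 to 2.06) both span 0. B barcodes were highest on normal diet, with 52.4 CPM (44.5 to 61.2) in WT and 39.1 CPM (34.0 to 44.7) in LysM-DKO, intervals that did not overlap those of any other class. WT/ApoE-/- B barcodes had 24.3 CPM, a log2 ratio of -1.09 (-1.71 to -0.55) to WT. For LysM-DKO over WT on normal diet, the Tomm40 log2 ratio was -0.42 (-0.73 to -0.11) in B barcodes and -0.33 (-0.52 to -0.14) in smooth muscle, and the intervals of the other 4 classes included 0. Gm20512, the antisense gene over the Tomm40 start, had 0 UMIs in macrophages.

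**Figure D4:**
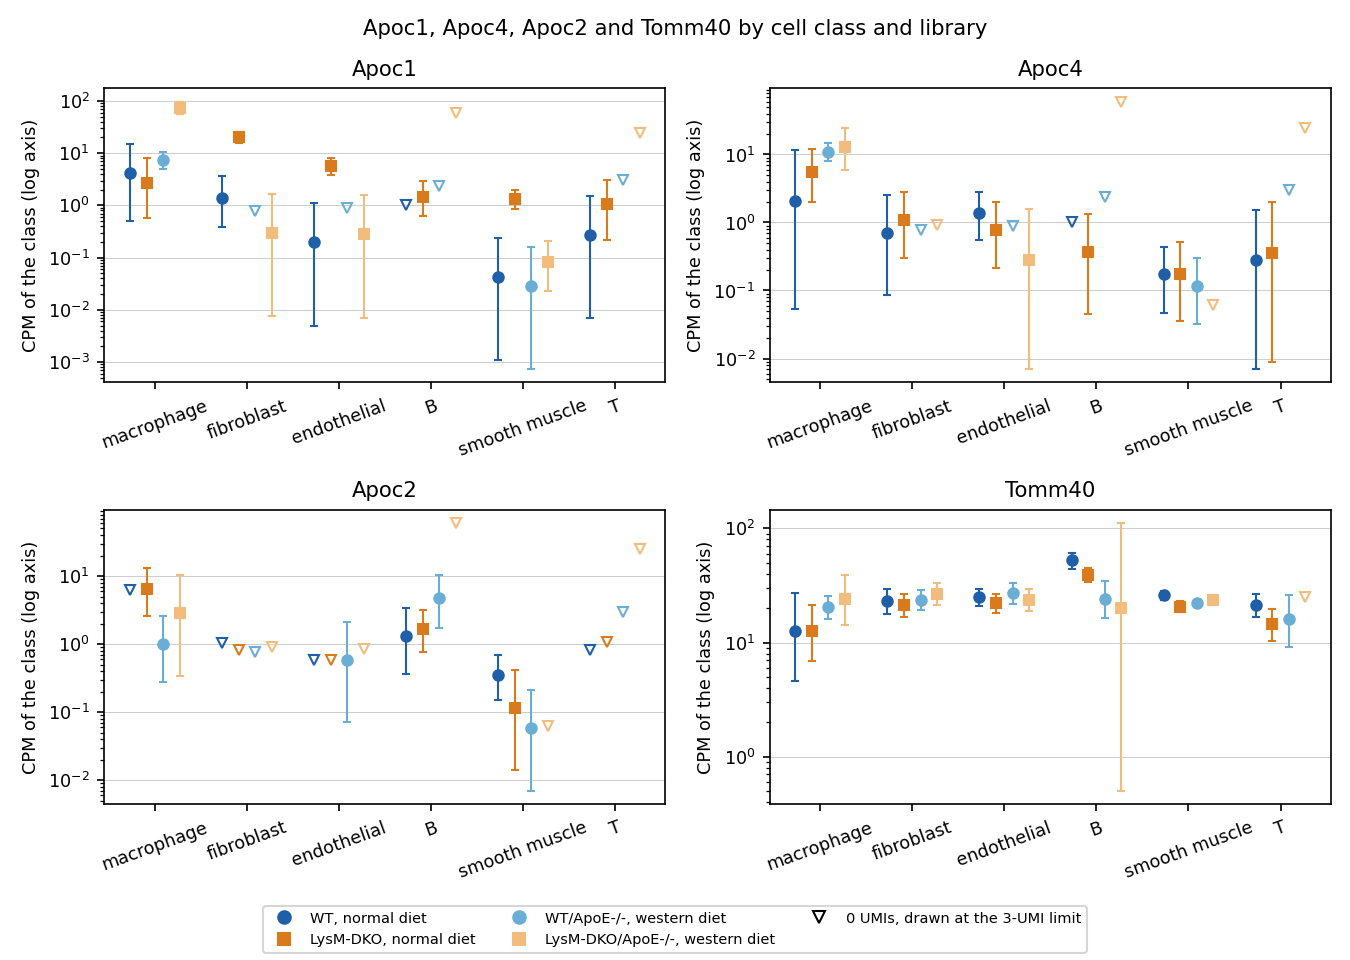
Apoc1, Apoc4, Apoc2 and Tomm40 (CPM of the class, log axes with a separate scale in each panel) in 6 cell classes and 4 libraries, with exact Poisson 95% intervals and open triangles at the limit of 3 UMIs where none was counted. Apoc1 stands out in LysM-DKO fibroblasts (20.2 CPM) and LysM-DKO/ApoE-/- macrophages (74.1 CPM, 51 of 52 UMIs in 1 barcode), while Tomm40 lies between 12.6 and 52.4 CPM wherever it was counted.

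No other feature tested within 500 kb of Apoe had a macrophage ratio between western and normal diet as far from 0 as Apoe itself. Of the 57 features within 500 kb of the Apoe start, 18 outside the 5 genes had enough UMIs in macrophages for the WT comparison of western over normal diet, and 3 were past 2-fold higher (Ercc1, Gemin7 and Rtn2) and 2 lower (Ppm1n and Gm26802), with a median log2 ratio of 0.01. Rtn2 had 0 UMIs in WT on normal diet, and with it at its bound against 3 UMIs 2 of the 18 were higher and the median was -0.08. The 5 genes had 4 with enough UMIs, of which Apoc4 was past 2-fold higher and Apoe lower, where 21.0% of 10342 features were higher and 8.71% lower. With the 335 features at 0 UMIs in 1 of the libraries at their bounds, 18.4% were higher. In LysM-DKO 13 neighbours had enough UMIs, 1 was higher (Ppp1r37) and 1 lower (Ppm1n), with a median of 0.25. Of the 5 genes 3 had enough, with Apoc1 higher and Apoe lower, where 7.11% of features were higher and 6.46% lower. Between the ApoE-/- libraries 1 of 4 was past 2-fold higher, Apoc1, where 4.10% of features were higher and 9.10% lower.

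The nearest genes on the Apoc2 side had macrophage log2 ratios of western over normal diet of -0.17 (WT) and 0.25 (LysM-DKO) for Clptm1, -0.61 and -0.10 for Relb, a subunit of NF-kB, and -0.35 and -0.14 for Clasrp. On the Tomm40 side, Nectin2, an adhesion receptor, had 0, 6, 12 and 1 UMIs in macrophages, and Gm26600 had 0. Apart from Ppm1n, the genes past 2-fold were named after their values were seen. The phosphatase gene Ppm1n was past 2-fold in both comparisons, at -1.61 (-2.94 to 0.10) and -1.18 (-3.05 to 0.19), with intervals that span 0.

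Genes that act with apolipoprotein E were compared in macrophages as 4 lists. Of 18 receptors and proteoglycans, 15 had enough UMIs for WT western over normal diet, and 9 were past 2-fold higher (21.0% of all features were) and 3 lower (8.71% were), with a median log2 ratio of 1.26 against 0.25 over all features (0.21 with features at 0 UMIs at their bounds). In LysM-DKO 11 had enough, of which 4 were higher (7.11% of all features were) and 1 lower (6.46% were), with a median of 0.71 against 0.10. Where such small counts name genes in the 4 lists beyond the most abundant ones, these were chosen after their values were seen. Trem2, a lipid receptor of macrophages that also served to group them above, stood at 107, 79.0, 839 and 560 CPM. The endocytic receptor Lrp1 stood at 174, 105, 444 and 372 CPM. The heparan sulfate proteoglycan Sdc4 was lower on western diet, at 1602, 1270, 616 and 690 CPM, and so was Mylip, a ubiquitin ligase, at 528, 388, 193 and 224 CPM.

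Of 21 apolipoprotein genes at other loci, 5 had enough UMIs in the WT comparison and 4 were past 2-fold higher (Apod, Apoo, Clu and Saa3, median 1.98), where 21.0% of all features were. Apoo and Saa3 had 0 UMIs in WT on normal diet, and with both at their bounds 2 of 5 were past 2-fold, where 18.4% of all features were, and the median was 0.90. In LysM-DKO 1 had enough and 0 were past 2-fold, where 7.11% of all features were higher and 6.46% lower. Clu, which encodes apolipoprotein J, was the most abundant, at 109, 106, 404 and 168 CPM. Apod had 1, 10, 48 and 1 UMIs, Saa3 had 0, 3, 46 and 1, and Apool, a mitochondrial inner membrane protein, had 4, 2, 39 and 9. In WT/ApoE-/- fibroblasts Clu (1407 CPM), Saa3 (177 CPM) and Apod (126 CPM) stood above their macrophage levels. Apoo did not, at 7.93 CPM against 9.20 CPM in macrophages. The 5 fibroblast markers outside the rules summed to 612, 520, 3523 and 663 CPM in macrophages. The part of transcripts from other classes in these counts was not tested. Of the apolipoproteins made mainly by liver and gut, Apoa1 had 3 UMIs over the 4 libraries in macrophages, Apoa2 had 4, Apob had 1, and Apoa4, Apoa5 and Apoc3 had 0.

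Of 13 lipases and lipid transfer genes, 10 had enough UMIs in WT and 3 were past 2-fold higher (Lpl, Angptl2 and Angptl4, list median 0.33). That is a share of 30.0% beside 21.0% of all features. Angptl4 had 1 UMI in WT and 26 in WT/ApoE-/- (log2 ratio 1.11, -0.94 to 7.02), an interval that spans 0. It had 16 UMIs in LysM-DKO and 1 in LysM-DKO/ApoE-/-, the other direction and too few to enter the count. In LysM-DKO 2 of 7 were higher (Lpl and Angptl2, list median 0.37), where 7.11% of all features were. Lpl, the lipase that apolipoprotein C-II activates, stood at 44.0, 49.1, 417 and 195 CPM, with log2 ratios of 3.21 (2.63 to 3.94) and 1.98 (1.53 to 2.47). Npc2 (798, 719, 875 and 929 CPM), which moves cholesterol out of lysosomes, and Pltp (417, 458, 470 and 539 CPM), the phospholipid transfer protein, were within 2-fold in each comparison. Lysosomal acid lipase, Lipa, stood at 197, 203, 334 and 268 CPM.

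Of 19 regulators of Apoe transcription, 16 had enough UMIs in WT, with 2 higher (Cebpa and Srebf1) and 2 lower (Nfkb1 and Jun, median -0.11), each 12.5% beside 21.0% and 8.71% of all features. In LysM-DKO 15 had enough, of which 0 were higher and 1 (6.67%) lower (median 0.14), where 7.11% of all features were higher and 6.46% lower. Nfkb1 stood at 639, 735, 274 and 405 CPM, Jun at 810, 536, 394 and 665 CPM, Cebpb at 601, 686, 448 and 828 CPM, and the glucocorticoid receptor gene Nr3c1 at 184, 130, 116 and 128 CPM. For LysM-DKO over WT on normal diet 2 of 13 regulators were past 2-fold higher, where 6.55% of all features were. Of these, Nr1h3 stood at 8.38 and 42.7 CPM (log2 2.19, 0.90 to 4.28). It was named after its values were seen, and it encodes liver X receptor alpha, a known activator of Apoe. The other 3 lists had 0 genes past 2-fold in that comparison, where 6.55% of all features were higher and 2.39% lower. Only 1 apolipoprotein gene, 10 receptors and proteoglycans, and 6 lipases and lipid transfer genes had enough UMIs there.

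The genes whose level followed Apoe most closely over the 6 classes and 2 normal diet libraries (12 points, 5397 features with 50 CPM or more in any point) were Marcks, Lamp2, Glmp, Pltp, Hsd17b11, Cxcl1, Tmem176b, Ccl2, C4b and Emilin2. Pearson correlations of log2(CPM + 10) ran from 0.989 for Marcks to 0.962 for Emilin2. The points share libraries and classes and are not independent. By Spearman correlation of CPM 2 of these 10 stayed among the first 10, Marcks and Glmp. Marcks stood at 404 and 381 CPM in macrophages, 306 and 402 CPM in fibroblasts, and 19.6 and 58.3 CPM in T barcodes. For Apoc1 over all 24 points the closest were Il18bp (0.772), Cacna1a (0.730), Tmem37 (0.724), Cx3cr1 (0.723) and Cd5l (0.716), of which 0 stayed by Spearman correlation, and the highest Apoc1 point comes from 1 barcode.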

How the data were processed

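The authors deposited 10x matrices of UMI counts, 1 for each of the 4 libraries, as raw counts per gene and barcode. Cell Ranger 6.1.2, Seurat 4.1.0 and the mm10 build are named in the submitters' processing notes. The file headers name Cell Ranger 6.0.1 (normal diet) and 6.1.2 (western diet), so the software may have differed along with diet. The libraries held 13831, 15826, 29724 and 11414 barcodes, of which 56.1, 52.0, 46.2 and 71.3% passed both filters (1000 UMIs or more, and no more than 10% of them mitochondrial). No doublet caller was run. Barcodes meeting more than 1 class rule were left out as an alternative.

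Counts were summed per library and class, and classes are rebuilt from marker rules. Ratios had 0.5 UMIs added to each sum, and features with at least 20 UMIs over both libraries entered counts past 2-fold. A sum of 0 is given with the level that 3 UMIs would have. Intervals are 95% exact Poisson for levels and exact binomial for ratios. Ratios and both kinds of interval were checked on simulated Poisson counts of genes with at least 20 UMIs over both libraries. Such counts do not clump in single barcodes, so coverage for clumped genes such as Apoc1 was not checked. Gene positions came from the GENCODE annotation of GRCm38 by gene ID (99.6% of features matched), and promoter windows from RefSeq, which held 4 of the 5 genes. No label gives the number of animals in a library.

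All 5 genes were named, with the 3 nearest features on each side, neighbours past 2-fold in both diet comparisons, the 10 features most like Apoe, the 5 most like Apoc1, and up to 4 genes of each list by summed macrophage UMIs. The genes, class rules and lists were chosen with earlier results of these data known. Alternatives covered the UMI and mitochondrial limits, class thresholds, barcodes meeting several rules, the deepest barcodes, equal weighting, the minimum count, thinning depth and the likeness measure. Alternatives chosen after seeing the data left out the barcode with most UMIs of a sparse gene, and barcodes with adipocyte transcripts. Scripts ran in Python 3.11.15 with pandas 2.3.3, scipy 1.17.1 and numpy 2.4.6, and plots were made with matplotlib 3.10.9. Values and counts that turn on some genes of the lists and markers are not reported here.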

Additional observations from a re-analysis of the deposited data

Results flagged for a closer look

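Apoe in smooth muscle barcodes had opposite directions in the 2 genotype comparisons, LysM-DKO over WT, at log2 ratios of 1.04 on normal diet and -1.32 in the ApoE-/- libraries. The difference was not tested, and the second value rests on 107 and 60 UMIs of residual signal.

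Barcodes that the filters left out (6073, 7596, 15980 and 3281) also held transcripts of these genes. Apoe stood there at 376 CPM (365 to 386) in LysM-DKO and 206 CPM (197 to 215) in WT on normal diet, against 3.71 CPM (2.77 to 4.86) in WT/ApoE-/- and 3.02 CPM (1.76 to 4.84) in LysM-DKO/ApoE-/-. The LysM-DKO value was above that of WT and of LysM-DKO/ApoE-/-, and the WT value was above that of WT/ApoE-/-. Apoc1 in the same barcodes stood at 2.25 CPM (1.51 to 3.24, 29 UMIs) in LysM-DKO and 0.380 CPM (0.103 to 0.972, 4 UMIs) in WT, so its order between the normal diet libraries matched that of the classified fibroblasts.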

How the results depend on the processing

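No paired analysis was possible because each group is 1 library, and for the same reason no replicate could be left out. Of 119 log2 ratios of the 5 genes recomputed under alternatives, 106 moved by less than their counting interval, 11 moved by more and 2 reversed. Alternatives that left 0 UMIs of the gene in either library gave no ratio in most settings and are then missing from this tally. A reversal was counted only where the main interval excluded 0. The macrophage Apoe ratio of LysM-DKO over WT on normal diet (-0.37) reversed to 0.37 without barcodes that met several rules, and was -0.54 at 5% mitochondrial UMIs or less, -0.23 without the deepest 5% of barcodes and -0.28 with equal weight for each barcode. In fibroblasts (0.41) it was 0.31 without barcodes that met several rules, 0.46 without the deepest 5% and 0.54 with doubled thresholds. In smooth muscle on normal diet (1.04) it was 0.96 at 2000 UMIs or more, 1.14 without the deepest 5% and 1.11 with equal weight, and between the ApoE-/- libraries (-1.32) it was -0.65 at 5% mitochondrial UMIs or less. Without the barcode with most UMIs in each library, the Apoc1 macrophage ratio between the ApoE-/- libraries (3.31) reversed to -1.60, and that of western over normal diet in LysM-DKO (4.56) was 0.65. At 5% mitochondrial UMIs or less, LysM-DKO/ApoE-/- macrophages held 0 Apoc1 UMIs.

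With at least 50 UMIs and with no minimum count, the features past 2-fold in macrophages numbered 205 and 4628 on normal diet (632 with 20 UMIs), 719 and 3674 between the ApoE-/- libraries (1375), and 479 and 4557 for western over normal diet in LysM-DKO (1040). In WT the last comparison gave 7354 with no minimum (3070), and fibroblasts on normal diet gave 182 and 5236 (493). By Spearman correlation 2 of the 10 genes most like Apoe and 0 of the 5 most like Apoc1 stayed in their lists. Apart from the causes built into these alternatives (fewer or more features, 1 barcode fewer), the cause was not tested. Levels moved beyond their interval in 38 of 93 cases, and shares of barcodes in 18 of 20. Apoc1, Apoc2 and Apoc4 are limited by their few UMIs.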
